A study of Homo sapiens with 12 samples.

Results

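The genes described here are 43 NRF2 targets and antioxidant enzymes, listed by name from what they are known to do, out of 62757 genes in the count table. These genes were chosen with earlier results of these data known. They fall into 10 role lists that cover the NRF2 regulators, glutathione synthesis, thioredoxin and peroxiredoxins, NADPH supply, quinone, heme and iron handling, aldo-keto reductases, glutathione transferases, glutathione peroxidases, catalase with superoxide dismutase, and 3 other detoxification genes. Of the 43, 41 passed the filter on low counts and were tested among 13896 genes. AKR1C1 and AKR1C2 were the exceptions, and are described with the other aldo-keto reductases.

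RNA was measured by poly(A) RNA sequencing in ARPE-19, an established human line of retinal pigment epithelium origin. All cells, the controls included, had been exposed to 3 µM fenretinide, a synthetic retinoid, for 120 h to move them toward a neuron-like state. They were then left non-transduced (control) or given an adeno-associated virus of serotype 9 carrying GFP (AAV9-GFP), codon-optimized AIPL1 (AAV9-AIPL1co) or AIPL1 in its native sequence (AAV9-AIPL1wt), and were lysed within about a day. AIPL1 is a co-chaperone of photoreceptors, and each group had 3 replicates that the study calls biological. Control replicate 1 stood apart from the other controls, was left out by the study and is left out of the tests here, so the control has 2 libraries and its levels for replicate 1 are given apart.

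NRF2, the product of NFE2L2, is a transcription factor that the adaptor KEAP1 holds in the cytoplasm and hands to a ubiquitin ligase. When electrophiles or oxidants modify KEAP1, NRF2 accumulates, pairs with small MAF proteins and binds antioxidant response elements near genes of glutathione, thioredoxin, NADPH and quinone metabolism. The pigment epithelium of the retina lives under light, high oxygen and a daily load of photoreceptor lipid, and is known for a strong antioxidant defence.

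The libraries held 6322811 to 9075660 counts assigned to genes, from 10088882 to 12811670 reads. The lowest share of uniquely mapped reads, 74.8%, was in AAV9-AIPL1wt replicate 1. The entry for codon-optimized AIPL1 had 11, 13 and 19 counts in the AAV9-AIPL1co libraries and 0 in the others, and that for GFP had 1 to 4 counts in the AAV9-GFP libraries. The native AIPL1 entry had 0 counts everywhere, so the counts do not check the AAV9-AIPL1wt label. Of 11 pigment epithelium markers, RPE65 and TYR were at 0 in all 12 libraries and TTR had at most 1 count, while the transcription factors OTX2 (435 to 690 normalized counts) and MITF (128 to 243) were expressed. The sum of the list was 739 and 771 in the kept controls, 689 to 772 with AAV9-GFP, 663 to 909 with AAV9-AIPL1co and 637 to 965 with AAV9-AIPL1wt. The summed normalized counts of 4 simple epithelial keratins differed between the groups tested, at 14904 and 18293 in the kept controls, 11700 to 15541 with AAV9-GFP, 4916 to 5391 with AAV9-AIPL1co and 8574 to 10103 with AAV9-AIPL1wt. In control replicate 1, also non-transduced, the sum was 7235, below every AAV9-AIPL1wt library. Some markers of other cells moved with the native vector. The sum of 6 fibroblast and mesenchyme markers was 402 to 461 there, against 585 or more in every other library. ACTA2 was at 59.0, 30.8 and 46.8 against 203 to 298 elsewhere, but the list had no common direction. COL1A1 was at 113, 152 and 120 with AAV9-AIPL1wt, against 36.8 and 27.2 in the kept controls and 51.0 to 72.1 with AAV9-GFP. It was 111 to 197 with AAV9-AIPL1co and 173 in control replicate 1. COL1A2, COL3A1 and THY1 had 3 counts or fewer in every library. PAX8, the only 1 of 4 kidney markers above 0, was 242 to 342 with AAV9-AIPL1wt and 210 to 226 with AAV9-AIPL1co, against 124 and 140 in the kept controls. The part of these markers in the results was not tested. In bulk RNA, fewer cells of a kind and less RNA per cell cannot be told apart.

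To show the element these genes are known for, the core TGACNNNGC was searched on both strands of RefSeq promoter windows (GRCh38.p14) that run from 250 bases before to 50 bases after each start site. A window was given for 34 of the 43 members. The core occurred in windows of 8 of these (23.5%), against 19.5% of the genes tested and 16.1% of all genes with a window. A match is a description of the letters in the window and not evidence of binding. The sequences below are shown because KEAP1, GCLM and TXNRD1 were lower and PGD was higher with the codon-optimized than the native vector, while ME1, GSTP1 and EPHX1 carry the same core and did not pass that test. Each runs 5′ to 3′ on the strand that carries the core, with the core in capitals and its position in parentheses.
KEAP1 (chr19:10502794-10502802, plus strand): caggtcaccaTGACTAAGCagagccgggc
GCLM (chr1:93909456-93909464, plus strand): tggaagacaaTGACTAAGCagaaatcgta
TXNRD1 (chr12:104215680-104215688, plus strand): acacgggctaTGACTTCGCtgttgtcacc
PGD (chr1:10398863-10398871, minus strand): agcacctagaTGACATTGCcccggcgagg
ME1 (chr6:83431180-83431188, minus strand): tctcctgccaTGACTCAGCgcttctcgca
GSTP1 (chr11:67583746-67583754, plus strand): gccggcgccgTGACTCAGCactggggcgg
EPHX1 (chr1:225825276-225825284, plus strand): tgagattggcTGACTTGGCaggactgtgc
KEAP1, TXNRD1 and ME1 held further cores in their windows that are not shown. The cores shown for KEAP1 and GCLM held the same 9 letters. Those shown for ME1 and GSTP1 overlap TGACTCA, the letters that AP-1 factors are known to bind. The other member with a core was MGST1, which did not pass the test between the AIPL1 vectors either.

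The AIPL1 vectors were set against each other to ask what the codon-optimized sequence changes relative to the native one. In AAV9-AIPL1co cells 13 members were lower (31.7% of 41, against 19.3% of all genes tested) and 7 were higher (17.1%, against 22.3%) than in AAV9-AIPL1wt cells, by edgeR's quasi-likelihood test at a Benjamini-Hochberg adjusted p under 0.05. Lower were both regulators, 3 of 4 genes of glutathione synthesis and recycling (GCLC, GCLM and GSR), 4 thioredoxin genes (SRXN1, TXNRD1, TXN and PRDX1), NQO1, AKR1C3, OSGIN1 and CAT. Higher were HMOX1, GSS, TALDO1, PGD, MGST3, PRDX2 and PRDX3. Of these 7, HMOX1 and GSS were kept under every alternative run and the other 5 were lost under some. The count of higher members was 2 within the first date code, 2 without AAV9-AIPL1wt replicate 2, 3 and 4 without AAV9-AIPL1co replicates 1 and 2, and 11 without AAV9-AIPL1wt replicate 1. The median log2 fold change of the 41 members was 0.00, against 0.02 over all genes tested. With library sizes alone as the scaling, 12 members were higher and 12 lower. That scaling also moved the median log2 fold change of all genes tested from 0.017 to 0.064. The share of all genes called under it was not taken, so this split has no background beside it.

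**Figure D1:**
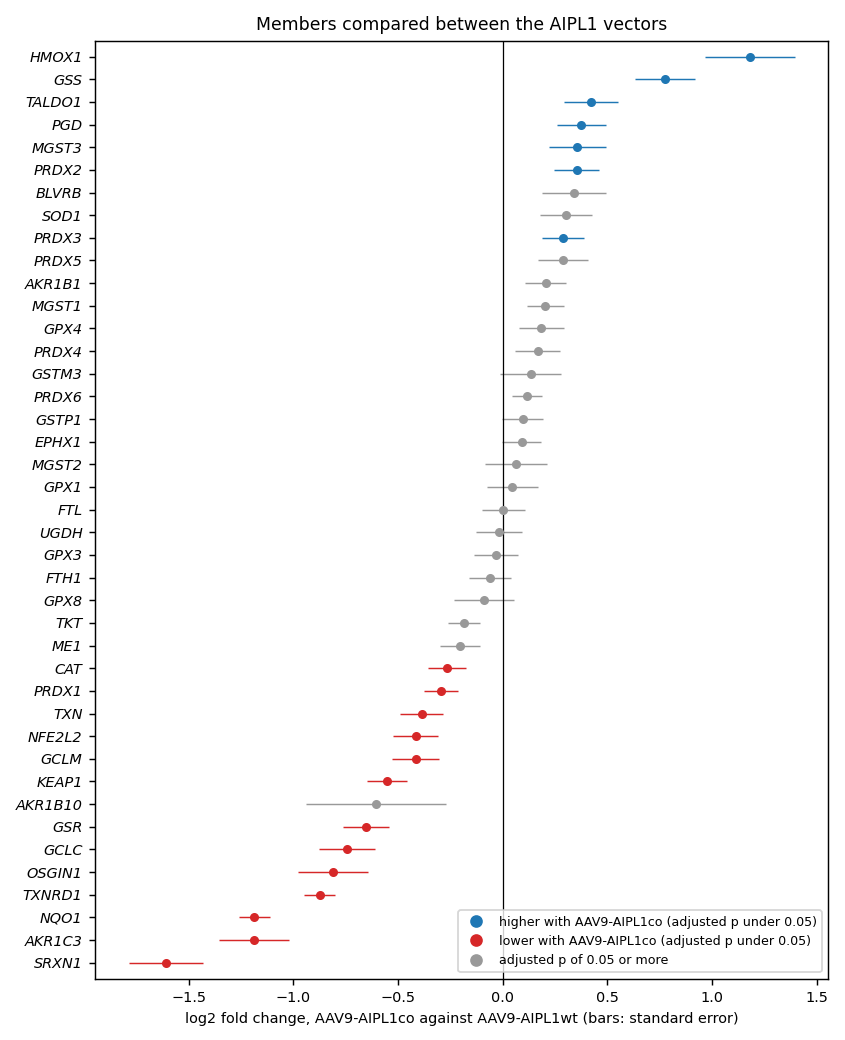
Log2 fold change of each of the 41 members tested, AAV9-AIPL1co against AAV9-AIPL1wt, ordered by value, with bars for the standard error. SRXN1 (−1.61), AKR1C3 and NQO1 (both −1.19) lie at the low end and HMOX1 (1.18) at the high end, while FTL, FTH1 and GPX8 lie near 0.

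Each vector was also set against the non-transduced control. AAV9-AIPL1wt cells had 16 members higher (39.0%, against 26.4% of all genes tested) and 13 lower (31.7%, against 30% of all genes). In AAV9-AIPL1co cells 10 members were higher (24.4%, against 22.4%) and 9 lower (22.0%, against 24.5%), which is close to the background in both directions. AAV9-GFP cells had 2 higher (4.88%, against 2.3%) and 2 lower (4.88%, against 6.66%). The 3 comparisons share the same 2 control libraries. Both control libraries came from the second of 2 date codes in the deposited names, whereas each vector group had 2 libraries of the first and 1 of the second.

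**Figure D2:**
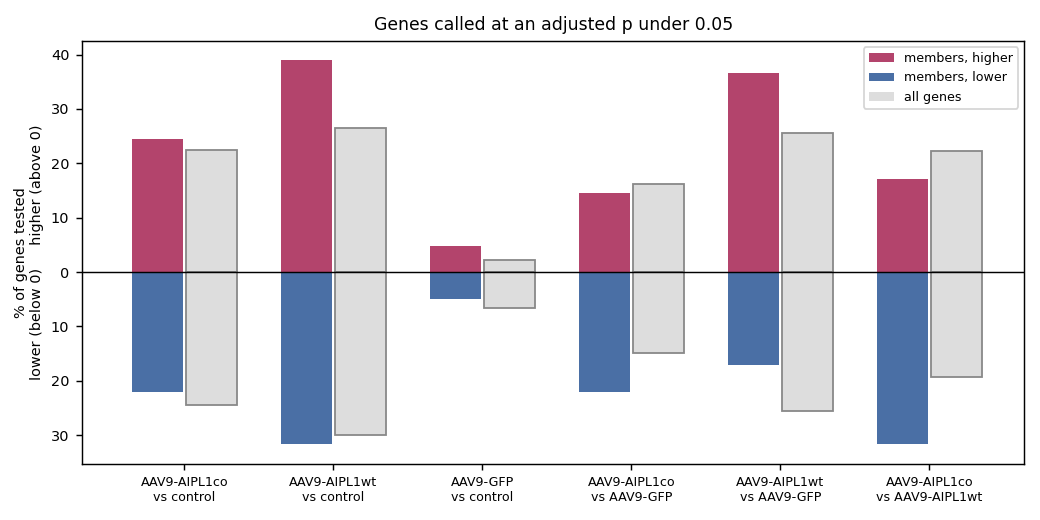
Share of the 41 members tested (coloured bars) and of all 13896 genes tested (grey bars) that were called at an adjusted p under 0.05, higher above 0 and lower below 0, in each of the 6 comparisons. The members exceed the background most for genes higher with AAV9-AIPL1wt against control (39.0% and 26.4%) and lower with AAV9-AIPL1co against AAV9-AIPL1wt (31.7% and 19.3%).

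Against AAV9-GFP, the vector control, AAV9-AIPL1wt cells had 15 members higher (36.6%, against 25.6% of all genes) and 7 lower (17.1%, against 25.5%). AAV9-AIPL1co cells had 6 higher (14.6%, against 16.1%) and 9 lower (22.0%, against 14.8%). With library sizes alone as the scaling, the native vector had 13 members higher and 14 lower than AAV9-GFP. The median log2 fold change of all genes tested moved with it, from 0.018 to −0.033, and the share of all genes called was not taken. A differentially expressed gene in the study's sense, with an adjusted p under 0.005 and a change of at least 3-fold, was rare among the members. It was reached by AKR1B10, lower with AAV9-AIPL1co than in the control, by GSS, lower with AAV9-AIPL1wt than with AAV9-GFP, and by SRXN1, lower with the codon-optimized than the native vector. Over all genes tested, the lower calls of this kind were 1.42%, 3.6% and 0.698% in these 3 comparisons, 4.86% for AAV9-AIPL1wt against control and 0.396% for AAV9-AIPL1co against AAV9-GFP. The higher ones, which held no member, were 1.99% and 2.34% for AAV9-AIPL1co and AAV9-AIPL1wt against control, 1.19% and 1.58% for the same vectors set against AAV9-GFP, and 2.04% when the AIPL1 vectors were compared.

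The members took 2.20% ± 0.0416 (SD, n = 2) of all gene counts in the control, 2.36% ± 0.0920 (n = 3) in AAV9-GFP cells, 2.65% ± 0.103 (n = 3) under the codon-optimized vector and 2.68% ± 0.207 (n = 3) under the native one. The ferritin chains FTL and FTH1 made 0.861% of gene counts in the control and 1.24% and 1.22% with the AIPL1 vectors. Scaled to exon length and normalized library total, FTL was the most abundant member (6717 CPM per kilobase of exon, the mean of the 11 libraries). FTH1 (2600), AKR1B1 (809), PRDX5 (502) and GSTP1 (477) followed. At the low end of the members tested were GCLC (5.64), GSTM3 (4.11) and AKR1B10 (2.51).

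**Figure D3:**
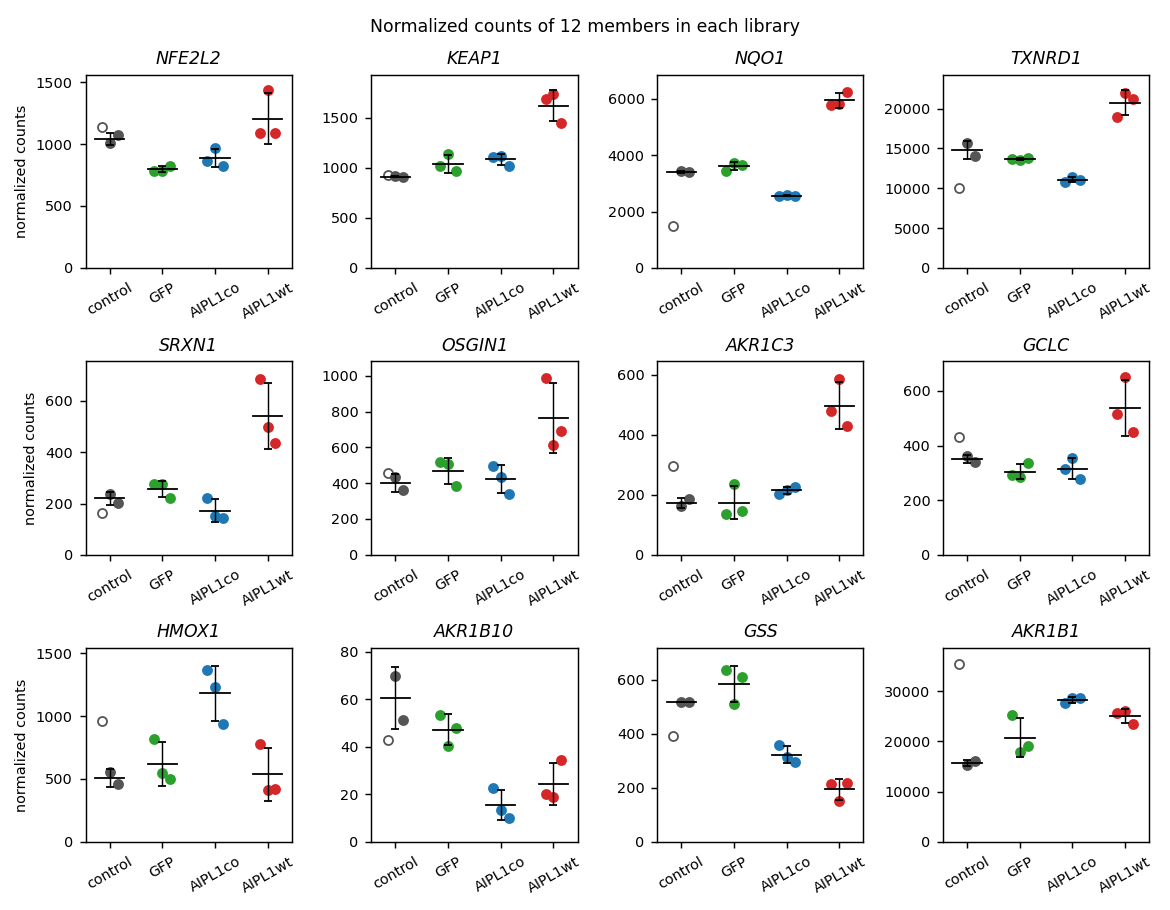
Normalized counts of 12 members in each of the 12 libraries, on linear axes from 0, with a line at the mean and bars of 1 SD. The open circle is control replicate 1, which enters neither the mean nor the tests. NQO1, TXNRD1, SRXN1, KEAP1 and AKR1C3 are highest in all AAV9-AIPL1wt libraries. HMOX1 is highest in the AAV9-AIPL1co libraries among those tested, with control replicate 1 (957) above the lowest of them (940), and GSS is lowest in the AAV9-AIPL1wt libraries.

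The regulators came first. KEAP1 (chr19:10486125-10503558, minus strand) had 913 and 909 normalized counts in control replicates 2 and 3, 1017, 1132 and 963 with AAV9-GFP, 1111, 1120 and 1013 with AAV9-AIPL1co, and 1683, 1734 and 1441 with AAV9-AIPL1wt. All AAV9-AIPL1wt libraries lay above every other library, and control replicate 1 (931) was close to the other controls. By edgeR's test KEAP1 was 1.72-fold higher with AAV9-AIPL1wt than in the control (log2 0.78, SE 0.11, adjusted p = 8.04e-06). With AAV9-AIPL1co against AAV9-AIPL1wt it fell by 0.55 on the log2 scale (SE 0.09, adjusted p = 0.000164), and among libraries of the first date code alone by 0.54 (adjusted p = 0.000361).

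NFE2L2 itself (chr2:177218667-177392756, minus strand) had 1006 and 1073 normalized counts in the controls, 783, 783 and 822 with AAV9-GFP, 866, 968 and 826 with AAV9-AIPL1co, and 1088, 1439 and 1089 with AAV9-AIPL1wt. The AAV9-GFP and AAV9-AIPL1co libraries all lay below the controls tested and the AAV9-AIPL1wt libraries above them, with replicate 2 the highest. Control replicate 1 (1138) lay above AAV9-AIPL1wt replicates 1 and 3. Of the control comparisons only that of AAV9-GFP passed the test (log2 −0.41, SE 0.12, adjusted p = 0.0414), and leaving out either control, or any AAV9-GFP or AAV9-AIPL1co library, ended that call (without control replicate 3, log2 −0.32, adjusted p = 0.352). NFE2L2 was lower with the codon-optimized than the native vector (log2 −0.42, SE 0.11, adjusted p = 0.00452), and within the first date code the difference was −0.27 with an adjusted p of 0.0548. Its exons overlap those of 4 other genes, including AGPS and HNRNPA3, and reads on more than 1 gene were not counted.

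Glutathione is made by glutamate-cysteine ligase, whose catalytic subunit is GCLC and whose modifier subunit is GCLM, and then by glutathione synthetase, GSS. These genes of 1 pathway did not move together. GCLC had 363 and 342 normalized counts in the controls, 294, 284 and 336 with AAV9-GFP, 314, 355 and 277 with AAV9-AIPL1co, and 516, 650 and 449 with AAV9-AIPL1wt. The native vector's libraries were above all others, and the remaining groups overlapped. GCLC was 1.49-fold higher with AAV9-AIPL1wt than in the control (log2 0.57, SE 0.15, edgeR adjusted p = 0.00316) and 1.68-fold lower with the codon-optimized than the native vector (log2 −0.74, SE 0.13, adjusted p = 0.000249).

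GCLM, by contrast, was lower with both AIPL1 vectors. It had 878 and 792 normalized counts in the controls, 686, 723 and 709 with AAV9-GFP, 553, 527 and 407 with AAV9-AIPL1co, and 724, 687 and 615 with AAV9-AIPL1wt. The AAV9-AIPL1co libraries lay below all others, and those of the native vector overlapped with AAV9-GFP. Against the control the log2 change was −0.77 with AAV9-AIPL1co (SE 0.12, edgeR adjusted p = 7.24e-05) and −0.35 with AAV9-AIPL1wt (SE 0.12, adjusted p = 0.0212). The latter call was lost without either control (adjusted p = 0.234 and 0.0561), any AAV9-GFP library or AAV9-AIPL1wt replicate 3 (0.130).

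GSS (chr20:34928432-34956027, minus strand) fell furthest with the native vector. Its normalized counts were 518 and 519 in the controls, 635, 510 and 609 with AAV9-GFP, 357, 315 and 294 with AAV9-AIPL1co, and 215, 149 and 216 with AAV9-AIPL1wt. No library of either AIPL1 group reached the lowest control or AAV9-GFP library, and the AIPL1 groups did not overlap with each other. By edgeR's test GSS was 2.79-fold lower with AAV9-AIPL1wt than in the control (log2 −1.48, SE 0.15, adjusted p = 3.50e-07) and 1.63-fold lower with AAV9-AIPL1co (log2 −0.70, SE 0.15, adjusted p = 0.000739). It was 1.71-fold higher with the codon-optimized than the native vector (adjusted p = 0.000331). An exon of GSS overlaps MYH7B.

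GSR, the reductase that returns oxidized glutathione to its reduced form, had 2255 and 1941 normalized counts in the controls, 1880 to 2404 with AAV9-GFP, 1648 to 1977 with AAV9-AIPL1co, and 2581 to 3243 with AAV9-AIPL1wt. The native vector again gave the highest libraries. GSR was higher with AAV9-AIPL1wt than in the control (log2 0.41, SE 0.12, edgeR adjusted p = 0.00872), a call lost without control replicate 3 (0.33, adjusted p = 0.0996). It was lower with the codon-optimized than the native vector (log2 −0.65, SE 0.11, adjusted p = 0.000141).

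In the thioredoxin system 4 of 9 genes were lower and 2 higher with the codon-optimized than the native vector, against 19.3% and 22.3% of all genes tested. TXNRD1 (chr12:104215779-104350307, plus strand), the selenoprotein reductase that keeps thioredoxin reduced, had 15655 and 14053 normalized counts in the controls, 13696, 13553 and 13743 with AAV9-GFP, 10830, 11422 and 11024 with AAV9-AIPL1co, and 18968, 22006 and 21178 with AAV9-AIPL1wt. The 4 groups did not overlap, and control replicate 1 (10042) lay below all of them. TXNRD1 was 1.35-fold higher with AAV9-AIPL1wt than in the control (log2 0.43, SE 0.08, edgeR adjusted p = 0.000234) and 1.35-fold lower with AAV9-AIPL1co (log2 −0.44, SE 0.08, adjusted p = 0.000292). With control replicate 1 included, the latter was −0.25 with an adjusted p of 0.144. The direct difference between the AIPL1 vectors was −0.87 (SE 0.07, adjusted p = 1.16e-07), and −0.83 within the first date code.

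SRXN1 (chr20:646615-653200, minus strand), sulfiredoxin, repairs peroxiredoxins that peroxide has over-oxidized. Its normalized counts were 238 and 203 in the controls, 275, 276 and 220 with AAV9-GFP, 222, 153 and 142 with AAV9-AIPL1co, and 684, 500 and 437 with AAV9-AIPL1wt. Each native-vector library was well above all others, while AAV9-AIPL1co overlapped with the control and AAV9-GFP. SRXN1 was 2.37-fold higher with AAV9-AIPL1wt than in the control (log2 1.24, SE 0.20, edgeR adjusted p = 3.91e-05) and 3.05-fold lower with the codon-optimized than the native vector (log2 −1.61, SE 0.18, adjusted p = 2.16e-06). It shares exon sequence with the unnamed gene ENSG00000270299.

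TXN, thioredoxin, and PRDX1, an abundant cytosolic peroxiredoxin, shared the rise with the native vector, with smaller changes, but were not lowest with AAV9-AIPL1co. Both were higher with AAV9-AIPL1wt than in the control (log2 0.38 and 0.31, edgeR adjusted p = 0.0106 and 0.00680) and lower with the codon-optimized than the native vector (log2 −0.39 and −0.30, adjusted p = 0.00631 and 0.00698). The rise of TXN over the control was lost without control replicate 2 (adjusted p = 0.0598) and that of PRDX1 without control replicate 3 (adjusted p = 0.0531). In the 6 peroxiredoxins as a group no common direction appeared. PRDX3, the mitochondrial form, fell with both AIPL1 vectors (log2 −0.56 with AAV9-AIPL1wt, adjusted p = 0.000258, and −0.27 with AAV9-AIPL1co, adjusted p = 0.0456), PRDX6 fell with AAV9-AIPL1wt (log2 −0.31, adjusted p = 0.00319), and PRDX2 and PRDX4 rose with AAV9-AIPL1co (log2 0.34 and 0.31, adjusted p = 0.0261 and 0.0427). Of these, the calls of PRDX2, PRDX3 and PRDX4 with AAV9-AIPL1co were lost without either control (adjusted p from 0.0794 to 0.270) and without 2 or more single vector libraries. PRDX5 passed no test, with log2 changes against the control between 0.00 and 0.29.

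**Figure D4:**
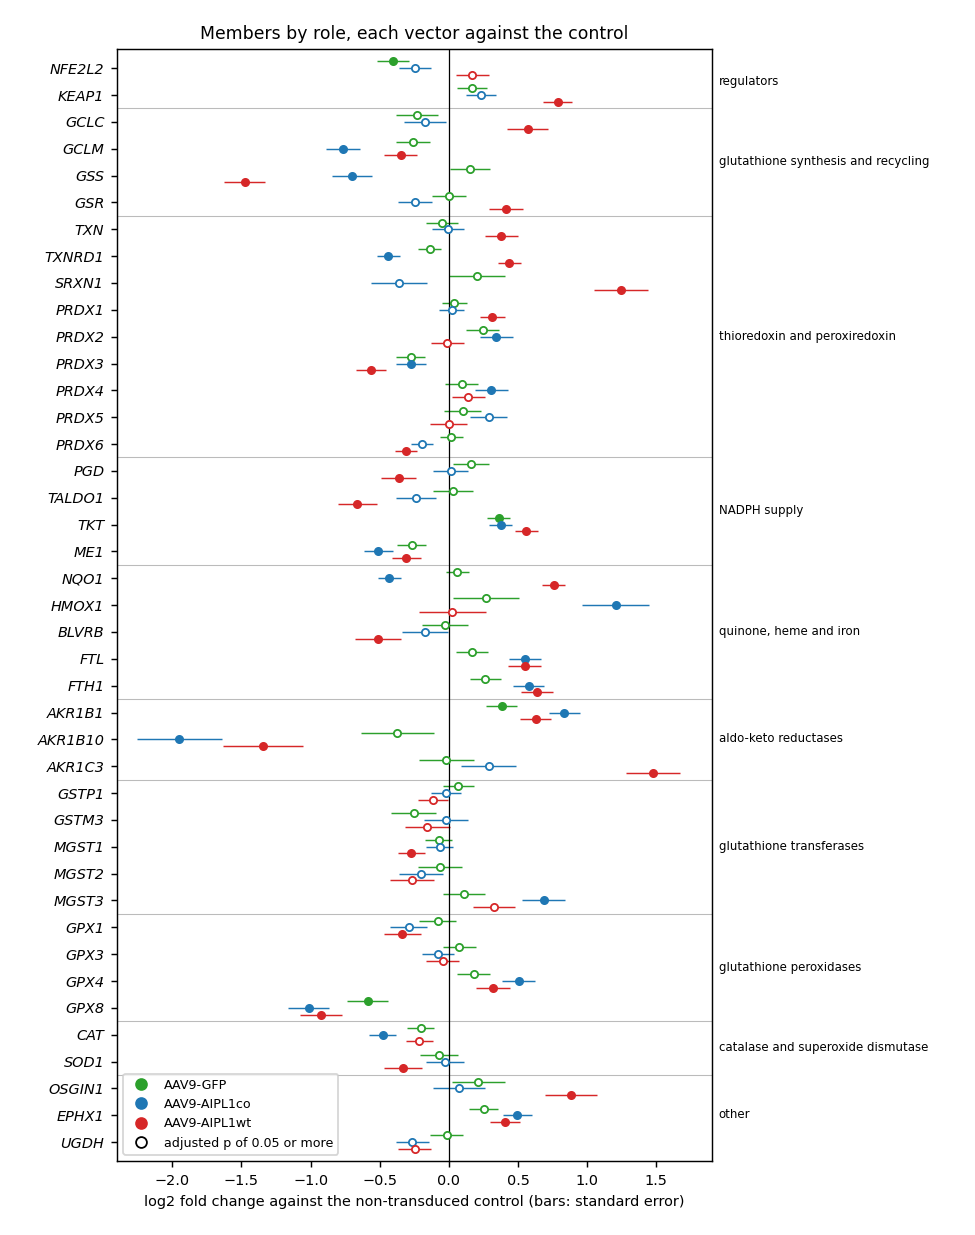
Change of the 41 members tested relative to non-transduced cells (log2 scale), grouped by role, for AAV9-GFP (green), AAV9-AIPL1co (blue) and AAV9-AIPL1wt (red), with bars for the standard error. Filled points passed an adjusted p of 0.05. Red and blue points lie on opposite sides of 0 for TXNRD1 and NQO1 and on the same side for GSS, FTL, FTH1, AKR1B1, AKR1B10 and GPX8.

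NADPH feeds the glutathione and thioredoxin reductases. Of the genes that supply it, or sugar phosphates to the same shunt, TKT, transketolase, rose in every vector group. It had 5651 and 5696 normalized counts in the controls, 7080, 7735 and 7325 with AAV9-GFP, 7723, 7550 and 7045 with AAV9-AIPL1co, and 9082, 8294 and 8480 with AAV9-AIPL1wt. The controls lay below every vector library, but control replicate 1 (6603) was closer to the vector groups. The log2 changes against the control were 0.36, 0.37 and 0.56 (edgeR adjusted p = 0.0183, 0.00141 and 2.32e-05), and that of AAV9-GFP was lost without either control (adjusted p = 0.0825 and 0.217) or AAV9-GFP replicate 2 (0.0773).

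The other members of the shunt went down with the native vector. TALDO1, transaldolase, had 7761 and 7510 normalized counts in the controls and 5920, 3835 and 5161 with AAV9-AIPL1wt (log2 −0.66, SE 0.14, edgeR adjusted p = 0.000696). PGD, phosphogluconate dehydrogenase, which makes NADPH directly, changed by −0.36 (adjusted p = 0.0219) and ME1, the cytosolic malic enzyme, by −0.31 (adjusted p = 0.0197). AAV9-AIPL1wt replicate 2 was the lowest library for both TALDO1 and PGD. Without it PGD changed by −0.24 (adjusted p = 0.0790), and the native-vector calls of PGD and ME1 were also lost without either control (adjusted p from 0.0536 to 0.252). ME1 was also lower with AAV9-AIPL1co (log2 −0.51, adjusted p = 0.000747), where TALDO1 and PGD did not pass the test (log2 −0.24 and 0.01).

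NQO1 and HMOX1, a pair often read together as NRF2 targets, moved in opposite directions between the AIPL1 vectors. NQO1 (chr16:69706996-69726668, minus strand) reduces quinones with NADPH. It had 3436 and 3388 normalized counts in the controls, 3439, 3708 and 3670 with AAV9-GFP, 2540, 2590 and 2552 with AAV9-AIPL1co, and 5770, 5827 and 6236 with AAV9-AIPL1wt. The replicates were tight, the AAV9-AIPL1co libraries lay below and the AAV9-AIPL1wt libraries above all the controls and AAV9-GFP libraries tested, and control replicate 1 (1480) lay below every library.

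By edgeR's test NQO1 was 1.69-fold higher with AAV9-AIPL1wt than in the control (log2 0.76, SE 0.08, adjusted p = 7.23e-07) and 1.35-fold lower with AAV9-AIPL1co (log2 −0.43, SE 0.08, adjusted p = 0.000318). With control replicate 1 included, the fall with AAV9-AIPL1co was 0.11 on the log2 scale (log2 −0.11, adjusted p = 0.718), and with a term for the date code added the sign turned (log2 0.03, adjusted p = 0.931). NQO1 was 2.28-fold lower with the codon-optimized than the native vector (log2 −1.19, SE 0.07, adjusted p = 3.15e-09), the smallest adjusted p of any member in that comparison. Within the first date code the difference was −1.22.

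HMOX1 (chr22:35380361-35394214, plus strand), heme oxygenase 1, opens the heme ring and releases iron, carbon monoxide and biliverdin. Its normalized counts were 556 and 458 in the controls, 815, 546 and 495 with AAV9-GFP, 1367, 1235 and 940 with AAV9-AIPL1co, and 775, 413 and 416 with AAV9-AIPL1wt. All AAV9-AIPL1co libraries lay above the rest of the libraries tested, control replicate 1 (957) was above the lowest of them, and the other 3 groups overlapped. Replicate 1 was the highest library of every group, and the control tested lacks it. HMOX1 was 2.31-fold higher with AAV9-AIPL1co than in the control (log2 1.21, SE 0.24, edgeR adjusted p = 0.000583) and the log2 change was 0.85 when control replicate 1 was kept (adjusted p = 0.0333). It was 2.27-fold higher than with AAV9-AIPL1wt (log2 1.18, SE 0.21, adjusted p = 0.000287), whereas AAV9-AIPL1wt against the control gave 0.02 (SE 0.24, adjusted p = 0.942).

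The ferritin chains, which store iron, rose with both AIPL1 vectors. FTL had 36952 and 32994 normalized counts in the controls, 36183, 45870 and 37451 with AAV9-GFP, 54037, 52556 and 48747 with AAV9-AIPL1co, and 61255, 47523 and 49182 with AAV9-AIPL1wt. FTH1 had 29943 and 29813 in the controls, 37791, 37548 and 33792 with AAV9-GFP, 48367, 44439 and 42426 with AAV9-AIPL1co, and 56660, 40171 and 46826 with AAV9-AIPL1wt. Each AIPL1 library exceeded every control and AAV9-GFP library for both genes, and replicate 1 was the highest of the native vector. Against the control the log2 changes were 0.55 and 0.58 with AAV9-AIPL1co and 0.55 and 0.64 with AAV9-AIPL1wt (edgeR adjusted p from 0.000126 to 0.000888). Between the AIPL1 vectors they were 0.00 for FTL and −0.06 for FTH1 (SE 0.10 each). Both genes have many processed copies in the genome, so reads that map to several places were lost. BLVRB, biliverdin reductase B, fell with AAV9-AIPL1wt (log2 −0.51, SE 0.17, adjusted p = 0.0143), a call lost without control replicate 2 (adjusted p = 0.0827) or 3 (0.0739).

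The aldo-keto reductases, which reduce aldehydes and ketones with NADPH, were 3 tested genes with 3 different patterns. AKR1C3 (chr10:5035354-5107686, plus strand) had 161 and 186 normalized counts in the controls, 137, 237 and 146 with AAV9-GFP, 202, 216 and 226 with AAV9-AIPL1co, and 479, 584 and 428 with AAV9-AIPL1wt. The native-vector libraries stood above all others, control replicate 1 (294) included. AKR1C3 was 2.78-fold higher with AAV9-AIPL1wt than in the control (log2 1.47, SE 0.19, edgeR adjusted p = 5.09e-06) and 2.28-fold lower with the codon-optimized than the native vector (log2 −1.19, SE 0.17, adjusted p = 2.48e-05). Its close relatives AKR1C1 and AKR1C2 were near absent, with 15 counts over the 12 libraries for AKR1C1, 9 of them in the AAV9-AIPL1wt libraries, and 1 count for AKR1C2. A count of 0 allows up to 0.317 to 0.515 CPM in these libraries, for counting error only. Reads shared among these near-identical genes were not counted, so their levels are uncertain.

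AKR1B10, a reductase of retinal and lipid aldehydes, went the other way. It was low throughout, with 69.8 and 51.1 normalized counts in the controls, 53.3, 40.4 and 47.8 with AAV9-GFP, 22.6, 13.5 and 10.2 with AAV9-AIPL1co, and 20.1, 18.6 and 34.6 with AAV9-AIPL1wt. Every AIPL1 library lay below every control and AAV9-GFP library, and the AIPL1 groups overlapped. AKR1B10 was 3.86-fold lower with AAV9-AIPL1co than in the control (log2 −1.95, SE 0.31, edgeR adjusted p = 6.08e-05) and 2.54-fold lower with AAV9-AIPL1wt (adjusted p = 0.000747). The difference between the AIPL1 vectors was −0.60 with an SE of 0.33 and did not pass the test (adjusted p = 0.156).

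AKR1B1, aldose reductase, rose with every vector. Its normalized counts were 15273 and 16177 in the controls, 25247, 17948 and 19157 with AAV9-GFP, 27676, 28625 and 28706 with AAV9-AIPL1co, and 25629, 26102 and 23451 with AAV9-AIPL1wt. The 2 controls tested were the lowest libraries, but control replicate 1 had 35413, more than any other library. Against the control the log2 changes were 0.38 for AAV9-GFP, 0.83 for AAV9-AIPL1co and 0.63 for AAV9-AIPL1wt (edgeR adjusted p = 0.0414, 1.34e-05 and 0.000124). With control replicate 1 included they were −0.10, 0.35 and 0.17 and none passed, so each rests on leaving that library out. The AAV9-GFP call was also lost without either kept control, AAV9-GFP replicate 1 or 2, or AAV9-AIPL1co replicate 2 or 3. A date-code term ended that call too.

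Glutathione transferases join glutathione to reactive compounds. GSTP1, the most abundant of them, GSTM3 and MGST2 passed no test, with GSTP1 at 5363 to 7366 normalized counts in the 11 libraries. MGST3, a microsomal form, had 744 and 756 in the controls, 810, 899 and 748 with AAV9-GFP, 1319, 1299 and 1037 with AAV9-AIPL1co, and 1227, 825 and 865 with AAV9-AIPL1wt. The AAV9-AIPL1co libraries lay above the controls and AAV9-GFP, and AAV9-AIPL1wt replicate 1 reached into their range. MGST3 was 1.61-fold higher with AAV9-AIPL1co than in the control (log2 0.68, SE 0.15, edgeR adjusted p = 0.00132). Its call between the AIPL1 vectors (log2 0.36, adjusted p = 0.0395) was lost within the first date code (0.17, adjusted p = 0.333) and when any 1 of 9 libraries was left out, with adjusted p up to 0.182 without AAV9-AIPL1wt replicate 3. MGST1 was lower with AAV9-AIPL1wt than in the control (log2 −0.27, adjusted p = 0.0234), which 8 of the single-library omissions ended, control replicate 2 among them (−0.20, adjusted p = 0.207).

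Glutathione peroxidases reduce peroxides at the expense of glutathione. GPX8, a form of the endoplasmic reticulum, had 417 and 502 normalized counts in the controls, 324, 267 and 340 with AAV9-GFP, 242, 249 and 198 with AAV9-AIPL1co, and 207, 259 and 281 with AAV9-AIPL1wt. It was lower in all vector libraries than in both controls, with control replicate 1 at 354. The log2 changes were −0.59 for AAV9-GFP, −1.01 for AAV9-AIPL1co and −0.93 for AAV9-AIPL1wt (edgeR adjusted p = 0.0239, 3.18e-05 and 4.74e-05), and the first of these was lost without either control (adjusted p = 0.0829 and 0.341) or AAV9-GFP replicate 1 or 2 (0.0814 and 0.129). GPX4, which reduces lipid peroxides in membranes, rose with both AIPL1 vectors (log2 0.50 with AAV9-AIPL1co, adjusted p = 0.00223, and 0.32 with AAV9-AIPL1wt, adjusted p = 0.0303). The latter call was lost without either control or AAV9-AIPL1wt replicate 1 (adjusted p = 0.104, 0.0628 and 0.0583). GPX1, the cytosolic form, was lower with AAV9-AIPL1wt than in the control (log2 −0.34, adjusted p = 0.0395) although the groups overlapped, and without control replicate 3 it was −0.09 (adjusted p = 0.679). With control replicate 1, which had 255 against 630 and 832 in the other controls, the sign of that change turned (log2 0.06, adjusted p = 0.863). GPX3, the secreted form, passed no test.

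CAT, catalase, which splits hydrogen peroxide in peroxisomes, had 1031 and 974 normalized counts in the controls, 871, 847 and 932 with AAV9-GFP, 732, 737 and 712 with AAV9-AIPL1co, and 810, 920 and 943 with AAV9-AIPL1wt. The AAV9-AIPL1co libraries were the lowest and did not overlap with any other group. CAT was 1.40-fold lower with AAV9-AIPL1co than in the control (log2 −0.48, SE 0.10, edgeR adjusted p = 0.000626). SOD1, cytosolic superoxide dismutase, had 3130 and 2929 in the controls and 3111, 1931 and 2401 with AAV9-AIPL1wt. These groups overlapped and the call (log2 −0.33, adjusted p = 0.0466) was lost with any 1 of 10 libraries left out (without AAV9-AIPL1wt replicate 2, log2 −0.17, adjusted p = 0.190).

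OSGIN1, a growth inhibitor induced by oxidative stress, had 437 and 365 normalized counts in the controls, 516, 507 and 387 with AAV9-GFP, 497, 437 and 341 with AAV9-AIPL1co, and 987, 615 and 690 with AAV9-AIPL1wt. The native-vector libraries lay above all others. Replicate 1 was the highest library of every group, and the control tested lacks it (459). OSGIN1 was 1.84-fold higher with AAV9-AIPL1wt than in the control (log2 0.88, SE 0.19, edgeR adjusted p = 0.000723) and 1.75-fold lower with the codon-optimized than the native vector (log2 −0.81, SE 0.17, adjusted p = 0.000923). EPHX1, microsomal epoxide hydrolase, rose with both AIPL1 vectors (log2 0.49 and 0.40, adjusted p = 0.00100 and 0.00355). UGDH, which makes the sugar donor for glucuronidation, passed no test.

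Other genes of the NRF2 and redox pathway were counted from a list of 82 names, of which 80 had 1 gene identifier and 70 were tested. AAV9-AIPL1wt cells had 18 of these higher and 23 lower than the control, and AAV9-AIPL1co cells 10 higher and 18 lower. Between the AIPL1 vectors 15 were higher and 13 lower with AAV9-AIPL1co. With AAV9-AIPL1wt these are 25.7% and 32.9% of the 70, against 26.4% and 30% of all genes tested. With AAV9-AIPL1co they are 14.3% and 25.7%, against 22.4% and 24.5%, and between the AIPL1 vectors 21.4% and 18.6%, against 22.3% and 19.3%. Apart from the 14.3%, which is below it, these shares lie near the background. With AAV9-GFP as the reference, the share of lower genes was above it for both AIPL1 vectors. AAV9-AIPL1wt cells had 21 of the 70 higher (30%, against 25.6% of all genes) and 25 lower (35.7%, against 25.5%). AAV9-AIPL1co cells had 9 higher (12.9%, against 16.1%) and 14 of the 70 lower, against 14.8% of all genes. AAV9-GFP cells had 1 higher and 3 lower than the control (1.43% and 4.29%, against 2.3% and 6.66%).

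SLC7A11, the cystine carrier that limits glutathione synthesis, was among the genes in which AAV9-GFP and AAV9-AIPL1co were both low. It had 431 and 378 normalized counts in the controls, 182, 230 and 227 with AAV9-GFP, 188, 153 and 132 with AAV9-AIPL1co, and 420, 442 and 391 with AAV9-AIPL1wt. The AAV9-AIPL1wt libraries overlapped with the controls, and the AAV9-GFP and AAV9-AIPL1co libraries lay far below both. SLC7A11 was 2.58-fold lower with AAV9-AIPL1co than in the control (log2 −1.37, SE 0.15, edgeR adjusted p = 1.37e-06) and 1.92-fold lower with AAV9-GFP (log2 −0.94, adjusted p = 0.00298), while AAV9-AIPL1wt against the control gave 0.00. Control replicate 1 had 755, and the AAV9-GFP call was lost without either other control (for replicate 3, adjusted p = 0.0753).

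TXNIP, the inhibitor that binds reduced thioredoxin, had 169 and 163 normalized counts in the controls, 156, 54.8 and 99.9 with AAV9-GFP, 32.0, 14.4 and 13.6 with AAV9-AIPL1co, and 22.8, 13.0 and 20.1 with AAV9-AIPL1wt. Against the control it was 8.19-fold lower with AAV9-AIPL1co and 9.35-fold lower with AAV9-AIPL1wt (log2 −3.03 and −3.22, SE 0.35 and 0.36, edgeR adjusted p = 2.59e-06 and 1.01e-06). Both AIPL1 groups lay below every AAV9-GFP library, and AAV9-GFP replicate 2 was the lowest of its group. EPHX2, soluble epoxide hydrolase, was 4.35-fold and 6.86-fold lower, and GSTA4, a transferase for lipid aldehydes, 3.20-fold and 4.44-fold lower, with AAV9-AIPL1co and AAV9-AIPL1wt (adjusted p from 2.18e-07 to 0.000210).

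GSTZ1, of tyrosine breakdown, and TFRC, the transferrin receptor, were lower with AAV9-AIPL1wt than in the control (3.55-fold and 2.38-fold, edgeR adjusted p = 1.87e-05 and 2.24e-07) and higher with the codon-optimized than the native vector (2.27-fold and 1.56-fold, adjusted p = 0.00193 and 0.000237). TFRC was also called lower with AAV9-GFP and AAV9-AIPL1co, at 964 to 1201 and 1077 to 1244 normalized counts against 1651 and 1846 in the controls. Both of these calls were lost with all 12 libraries, and control replicate 1 had 1097. GSTZ1 was also called lower with AAV9-AIPL1co (37.3 to 64.0, against 75.4 and 77.5 in the controls), a call lost without either control. CHAC1, which breaks down glutathione, had few counts and a wide spread in AAV9-GFP, from 3.85 to 66.9 normalized counts. It had 26.4 and 27.2 in the controls, 33.9, 14.4 and 14.7 with AAV9-AIPL1co, and 5.36, 0.932 and 4.46 with AAV9-AIPL1wt. CHAC1 was called lower with AAV9-AIPL1wt than in the control. It was 6.32-fold higher with the codon-optimized than the native vector (log2 2.66, SE 0.86, adjusted p = 0.0187), a call lost without AAV9-AIPL1co replicate 1 or AAV9-AIPL1wt replicate 2 (adjusted p = 0.109 and 0.0710). BACH1, a repressor that competes with NRF2 for its elements, was lower with AAV9-GFP than in the control (log2 −0.65, SE 0.18, adjusted p = 0.0323), a call lost without either control (0.136 and 0.317), AAV9-GFP replicate 1 or 2, or AAV9-AIPL1co replicate 2. BACH1 was also called lower with AAV9-AIPL1co (log2 −0.51), a call lost without either control or AAV9-AIPL1co replicate 1 or 3. Its call as higher with AAV9-AIPL1wt than with AAV9-GFP was lost without AAV9-GFP replicate 1 or AAV9-AIPL1wt replicate 2. Control replicate 1, at 632, had far more than the 255 and 280 of the other controls.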

How the data were processed

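Poly(A) RNA of 12 ARPE-19 libraries (4 groups of 3) was measured. The authors aligned the reads with STAR 2.7.10b to GRCh38 and counted them per gene with HTSeq 0.11.1, and the deposited values are raw counts. These equal the unstranded counts of the aligner for all 62761 features. The library kit did not mark strand (49.9% to 50.2% of reads fell on the forward strand), so overlapping antisense genes cannot be told apart. Reads that map to several places (13.2% to 24.3%) or lie on exons of more than 1 gene (7.82% to 8.71%) were not counted, which lowers genes with near copies. The 5 summary lines of the counter (28.0% to 37.0% of reads) were left out.

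Counts were tested with edgeR 4.0.16 (R 4.3.3), as glmQLFit and glmQLFTest with TMM scaling, filterByExpr and group as the only term, over 11 libraries and 13896 genes, with Benjamini-Hochberg adjustment over all of them. Control replicate 1 was left out, as in the study. A gene is called at an adjusted p under 0.05. Fold changes are on edgeR's log2 scale, and each SE was obtained from the F statistic (absolute log2 change over root F). Normalized counts use TMM factors of all 12 libraries. Levels between genes are CPM per kilobase of exon, with lengths from GENCODE. For these levels, CPM are counts scaled to the library's total over the genes tested times its TMM factor. The code was tested on simulated counts. P-values measure the spread between replicates that the study calls biological.

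Alternatives were other scalings, no filter or a filter of 1 CPM in 3 libraries, DESeq2 1.42.0, all 12 libraries, a date-code term, a replicate block, only the 2 groups compared, and each library left out in turn. A fit within the first date code was added after seeing the data. The members and lists were chosen with earlier results of these data known. Named were 8 NRF2 genes always, the 6 members and 3 pathway genes with the largest called change in each comparison, and the most abundant member of a role list without one, 25 genes in all. Other members are named with their role list.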

Additional observations from a re-analysis of the deposited data

Results flagged for a closer look

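AKR1B1 in control replicate 1, a library left out of the comparisons, had 35413 normalized counts, over 2-fold the 15273 and 16177 of the other controls and above every vector library. Of the 41 members with more than 10 counts in some library it was the only one over 2-fold higher there, and NQO1 and GPX1 were over 2-fold lower. Control replicate 1 has the first date code and the other controls the second, so library and date code cannot be told apart among the controls.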

How the results depend on the processing

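Of the members called, those kept under every alternative and every omission of a library were 9 of 13 lower (KEAP1, GCLC, GCLM, GSR, TXNRD1, SRXN1, NQO1, AKR1C3 and OSGIN1) and 2 of 7 higher (GSS and HMOX1) between AAV9-AIPL1co and AAV9-AIPL1wt, 11 of 16 higher and 4 of 13 lower between AAV9-AIPL1wt and control, 7 of 10 and 6 of 9 between AAV9-AIPL1co and control, 11 of 15 and 5 of 7 between AAV9-AIPL1wt and AAV9-GFP, 2 of 6 and 3 of 9 between AAV9-AIPL1co and AAV9-GFP, and 0 of 2 and 0 of 2 between AAV9-GFP and control. Of 3432 gene values with a library left out, 3185 kept their direction and side of the threshold, 180 lost a call, 67 gained one and 0 reversed. The causes of the changes given here were not tested. The control comparisons rest on 2 control libraries, which limits what a missing call shows.

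With control replicate 1 included, AKR1B1 between AAV9-GFP and control turned to −0.098 (−0.17 with a date-code term, −0.046 with a replicate block), GPX1 between AAV9-AIPL1wt and control to 0.065 (0.22 and 0.10), and NQO1 between AAV9-AIPL1co and control to 0.028 with the date-code term.

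Counts of calls that moved by over 1.5 times are given with the count of the tests reported in parentheses. Members between AAV9-GFP and control (2 higher, 2 lower) came to 0 and 1 with all 12 libraries, 1 and 0 with a date-code term, 0 and 0 with both, 1 higher with library size only, 1 lower with relative log expression, and 5 and 5 with only the groups compared. Pathway genes higher there (1) came to 0 with the date-code term, library size only or no filter, 2 with all 12 libraries and date code, relative log expression or DESeq2, and 3 with only the groups compared, which gave 6 lower (3). Between AAV9-AIPL1co and AAV9-GFP, all 12 libraries with or without date code gave 2 members higher (6), 3 lower (9) and 4 pathway genes higher (9). Members higher between AAV9-AIPL1co and AAV9-AIPL1wt (7) came to 2 with all 12 libraries, with or without date code, 2 within the first date code, 12 with library size only and 11 with no filter. Members lower between AAV9-AIPL1wt and AAV9-GFP (7) came to 14 with library size only, members lower between AAV9-AIPL1wt and control (13) to 6 with only the groups compared, and pathway genes higher between AAV9-AIPL1co and control (10) to 6 with library size only and 16 with only the groups compared.

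Deviations of same-numbered samples correlated weakly (−0.063 to 0.236 over 15 pairs, median 0.070, against a median of −0.034 over 30 pairs of different numbers). Of the 15, 12 were positive and 4 were over 0.1, among them all 3 pairs of replicate 1 of the vector groups, and 7 of 11 libraries correlated best with their own number. Since not every pair was over 0.1 and no label gives the numbers a shared source, the numbers were not taken to pair the samples. A shared order by number is still not excluded. HMOX1 and OSGIN1 were highest in replicate 1 of every group, and the control tested lacks that replicate. The calls of HMOX1 with AAV9-AIPL1co and OSGIN1 with AAV9-AIPL1wt against the control were kept with the replicate block. With the replicate block, members between AAV9-GFP and control came to 1 higher and 1 lower, pathway genes higher there to 0, and members lower between AAV9-AIPL1wt and AAV9-GFP to 11. The block with all 12 libraries gave 0, 0 and 0 for the AAV9-GFP comparison with control, 2 members higher, 3 lower and 4 pathway genes higher between AAV9-AIPL1co and AAV9-GFP, and 2 members higher between the AIPL1 vectors.

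With each library left out in turn, members higher and lower ranged from 8 to 12 and 8 to 13 (AAV9-AIPL1co and control), 13 to 17 and 6 to 12 (AAV9-AIPL1wt and control), 0 to 3 and 0 to 3 (AAV9-GFP and control), 4 to 8 and 5 to 12 (AAV9-AIPL1co and AAV9-GFP), 13 to 16 and 6 to 11 (AAV9-AIPL1wt and AAV9-GFP), and 2 to 11 and 12 to 15 (AIPL1 vectors). Pathway genes ranged, in that order, from 5 to 14 and 10 to 22, 15 to 20 and 18 to 26, 0 to 2 and 0 to 4, 6 to 11 and 10 to 17, 17 to 23 and 20 to 27, and 12 to 20 and 11 to 17. Members lower between AAV9-AIPL1wt and control came to 7 and 6 without control replicates 2 and 3, and to 8 without AAV9-GFP replicate 1 or 3. Members lower between AAV9-AIPL1co and AAV9-GFP came to 5 without AAV9-GFP replicate 1 or AAV9-AIPL1co replicate 3, and between AAV9-AIPL1wt and AAV9-GFP to 11 without AAV9-AIPL1wt replicate 1. Members higher between the AIPL1 vectors came to 3 and 4 without AAV9-AIPL1co replicates 1 and 2, and to 11 and 2 without AAV9-AIPL1wt replicates 1 and 2.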

Other observations

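SQSTM1, MAFG and SLC3A2 are pathway genes outside the naming rule, chosen after their values were seen. SQSTM1, the autophagy receptor that binds KEAP1, was higher with AAV9-AIPL1wt than in the control (log2 1.02, edgeR adjusted p = 5.76e-06) and lower with the codon-optimized than the native vector (log2 −0.69, adjusted p = 0.000175). MAFG, a small MAF partner of NRF2, rose with both AIPL1 vectors over the control (log2 1.13 for AAV9-AIPL1co and 1.39 for AAV9-AIPL1wt, adjusted p = 7.71e-06 and 4.85e-07). Control replicate 1 had 1959 MAFG normalized counts, against 950 and 889 in the other controls, and lay within the AAV9-AIPL1co range of 1736 to 2346. SLC3A2, the heavy chain that pairs with SLC7A11 in the cystine carrier, also rose with both AIPL1 vectors (log2 1.24 and 1.43, adjusted p = 1.14e-05 and 1.38e-06), whereas SLC7A11 fell with AAV9-AIPL1co (log2 −1.37) and gave 0.00 with AAV9-AIPL1wt.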
